A study of Homo sapiens with 4 samples.

Results

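AP-1 is a family of dimeric transcription factors built from proteins with a basic DNA-binding region and a leucine zipper (bZIP proteins). Described here are 10 of its subunit genes and close relatives, JUN, JUNB, JUND, FOS, FOSB, FOSL1, FOSL2, ATF3, MAFF and MAFK, chosen by gene symbol from a deposited table of 58735 genes, in which all 10 are present. The RNA came from OVCAR8, an established human line labelled as ovarian cancer, with 2 libraries in each of 2 groups. Cells of shFAM49B received short hairpin RNAs directed at FAM49B (genotype label: FAM49B knockdown), and cells of shCON received a scrambled hairpin (genotype label: WT). All 4 libraries come from cells that, per the labels' protocols, received hairpin plasmids by lipid transfection and were collected after 36 h, whereas the series' design text calls the knockdown stable. How many hairpins or clones were used is not given in these labels. The study's title asks about cell growth and MAPK signalling, the kinase pathway that acts on several of these subunits.

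JUN proteins pair with each other or with FOS proteins, while FOS proteins need a JUN partner to bind DNA. The dimers recognise the TPA response element (TRE) and, with ATF partners, the cAMP response element (CRE). Kinases of the ERK and JNK branches of MAPK signalling induce and phosphorylate these subunits, and several of the genes are immediate early genes, switched on within minutes of growth factor or stress signals. ATF3 is a stress-induced member of the ATF branch, and MAFF and MAFK are small MAF proteins, which lack a transactivation domain and pair with NRF and BACH proteins.

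Levels are in FPKM, which divides a gene's reads by its length and by a scale factor of the library, so that genes can be compared with each other. The deposited scale factors were 0.941 and 0.919 times the depth in shFAM49B, against 1.08 and 1.10 times in shCON. They thus differed by group, and at an equal share of the depth a smaller factor gives a higher FPKM. That depth was 16288871 and 16290200 recovered reads in shFAM49B, against 15639559 and 16875353 in shCON. FAM49B itself stood at 1.06 and 1.02 FPKM in shFAM49B, against 7.41 and 7.60 FPKM in shCON, 7.21-fold lower (log2 fold change -2.06, SE 0.0807, limma adjusted p = 0.00054). The 8 markers fixed for ovarian carcinoma summed to 7.16 and 7.28 FPKM in shFAM49B and 7.49 and 7.70 FPKM in shCON. Of them, PAX8 was at most 0.112 FPKM and SOX17 was listed at 0 in all 4 libraries, and 3 of the 8 passed the filter. EMX2 rose, at 3.04 and 3.15 FPKM in shFAM49B, against 1.51 and 1.84 FPKM in shCON. MECOM fell, at 3.00 and 2.53 FPKM in shFAM49B, against 4.14 and 3.53 FPKM in shCON (adjusted p = 0.049). WT1, at 0.840 and 0.845 FPKM in shFAM49B and 1.254 and 1.565 FPKM in shCON, did not pass (adjusted p = 0.0924), and PAX8 and MSLN, under the filter, were lower in both shFAM49B libraries. All 8 markers of basal or squamous epithelium fell, and their summed level was 36.4 and 38.9 FPKM in shFAM49B, against 591 and 529 FPKM in shCON. Of the 4 tested markers of simple epithelium 3 fell, and the list summed to 62.1 and 62.3 FPKM in shFAM49B, against 76.4 and 73.4 FPKM in shCON. KRT8, which did not pass, and KRT18, which fell 1.18-fold, carried most of this sum. EPCAM fell 12.4-fold (mean 0.237 FPKM in shFAM49B, against 2.95 in shCON). CDH1 fell 10.2-fold (mean 0.352 FPKM in shFAM49B, against 3.60 in shCON). KRT7, under the filter, was at most 0.0724 FPKM in any library. The part of both epithelial lists in the results below was not tested. Sums over the 6 leukocyte markers (0.0684 to 0.275 FPKM) and the 4 endothelial markers (0.190 to 0.479 FPKM) were low in all libraries. The 7 fibroblast markers summed to 6.35 and 6.995 FPKM in shFAM49B and 6.41 and 6.85 FPKM in shCON, mostly from COL1A1. The 4 melanocyte or neural markers summed to 6.62 and 5.38 FPKM in shFAM49B and 6.93 and 6.07 FPKM in shCON, mostly from MITF and PMEL. These 2 sums were thus not low beside that of the ovarian carcinoma markers, and COL1A1, MITF and PMEL did not pass. In RNA from bulk cells, fewer cells of a type and less RNA per cell cannot be told apart.

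In shFAM49B, JUN, JUND and ATF3 rose and JUNB, FOSL1 and FOSL2 fell. JUN changed most, by 3.43-fold, and the others by 1.54-fold to 1.96-fold. MAFK did not pass the test, and FOS, FOSB and MAFF lay under the filter of a mean of 1 FPKM. The test was limma on log2(FPKM + 1) over all 13775 genes that passed this filter, with Benjamini-Hochberg adjustment and a threshold of 0.05. Of these genes 26.4% were called higher and 15.8% lower, 42.2% in all, so a call by itself is common in these libraries. Of the 7 tested subunits, 3 were called higher and 3 lower. Their median log2 fold change was 0.17, against 0.05 over all tested genes. The libraries of the groups did not overlap for any of these 7 genes, as was the case for 74.7% of all tested genes (43.1% above and 31.6% below). Of the called genes, 62.7% were higher in shFAM49B with the values as deposited, but 26.8% after rescaling to TPM and 29.2% relative to recovered reads, which moved the median log2 fold change by -0.22 and -0.18. The calls and directions of the 6 subunits held under both rescalings.

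**Figure D1:**
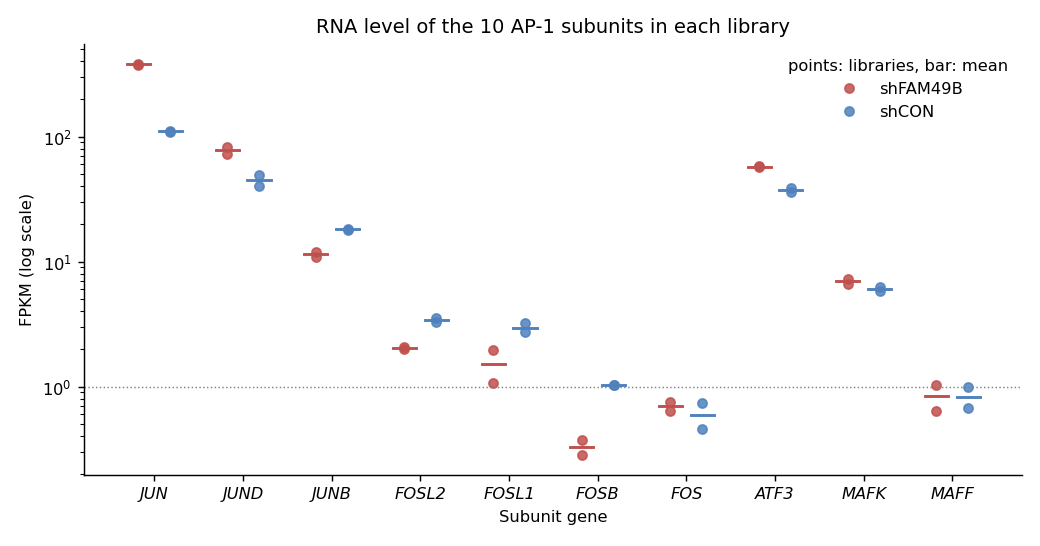
FPKM of each subunit gene on a log axis, with 1 point per library and a bar at the mean of the 2 libraries of shFAM49B (red) and shCON (blue). JUN is the highest subunit in both groups, and the dotted line marks 1 FPKM, the filter on the mean over the 4 libraries.

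The order of levels was nearly the same in the groups. In shFAM49B it ran from JUN (380.0 ± 7.19 FPKM, SD, n = 2) over JUND (78.3 ± 7.21), ATF3 (57.5 ± 0.389), JUNB (11.4 ± 0.838), MAFK (6.94 ± 0.423), FOSL2 (2.02 ± 0.063), FOSL1 (1.51 ± 0.620), MAFF (0.837 ± 0.280) and FOS (0.692 ± 0.0746) to FOSB (0.327 ± 0.0645). In shCON it ran from JUN (111 ± 0.971 FPKM) over JUND (45.0 ± 6.42), ATF3 (37.2 ± 1.83), JUNB (18.2 ± 0.192), MAFK (6.04 ± 0.275), FOSL2 (3.41 ± 0.216), FOSL1 (2.96 ± 0.341), FOSB (1.03 ± 0.00917) and MAFF (0.829 ± 0.217) to FOS (0.596 ± 0.196). JUND exceeded ATF3 in every library, by 1.12 to 1.44 times. FOS and MAFF overlapped in both groups, and FOSL1 and FOSL2 differed by less than the SD of FOSL1 in shFAM49B. Among protein-coding genes, JUN stood at percentile 99.7 of level in shFAM49B and 99.0 in shCON, while FOSL2, the highest FOS gene, stood at percentile 50.01 in shFAM49B and 56.3 in shCON.

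Promoters of 5 of the 6 called subunits are shown, as FOSL1 had no matched window. Any part of their sites in the changes was not tested. Windows of 300 bases, 250 before the transcript start and 50 from it, were taken from RefSeq (GRCh38.p14) and were matched for 8 of the 10 genes, all but FOSL1 and MAFK. Capitals mark the TRE (TGACTCA), the CRE (TGACGTCA) and the sites TGACATCA and TTACCTCA, known from the JUN promoter as jun1 and jun2, searched on both strands. Sequences run 5′ to 3′ on the strand of the gene, which is the minus strand for JUN (chr1:58783998-58784297) and JUND (chr19:18281573-18281872) and the plus strand for ATF3 (chr1:212565157-212565456), JUNB (chr19:12791236-12791535) and FOSL2 (chr2:28392608-28392907).
JUN: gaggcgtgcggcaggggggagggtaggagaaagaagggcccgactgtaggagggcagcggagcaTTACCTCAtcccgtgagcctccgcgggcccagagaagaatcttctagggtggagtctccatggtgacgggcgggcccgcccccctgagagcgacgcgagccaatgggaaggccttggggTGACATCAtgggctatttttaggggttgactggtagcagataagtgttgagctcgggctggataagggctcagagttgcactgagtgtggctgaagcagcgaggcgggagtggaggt
JUND: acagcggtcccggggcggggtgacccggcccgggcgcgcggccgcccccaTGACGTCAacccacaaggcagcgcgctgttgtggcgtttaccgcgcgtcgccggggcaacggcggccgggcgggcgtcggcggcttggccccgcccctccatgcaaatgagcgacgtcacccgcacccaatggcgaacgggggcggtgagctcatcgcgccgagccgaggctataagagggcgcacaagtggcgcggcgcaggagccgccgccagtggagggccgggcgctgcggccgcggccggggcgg
ATF3: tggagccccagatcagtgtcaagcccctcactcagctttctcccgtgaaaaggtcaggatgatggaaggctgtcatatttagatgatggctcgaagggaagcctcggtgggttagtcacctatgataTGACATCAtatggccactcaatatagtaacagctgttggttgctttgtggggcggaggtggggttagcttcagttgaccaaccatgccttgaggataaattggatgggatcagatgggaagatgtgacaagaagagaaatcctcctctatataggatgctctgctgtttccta
JUNB: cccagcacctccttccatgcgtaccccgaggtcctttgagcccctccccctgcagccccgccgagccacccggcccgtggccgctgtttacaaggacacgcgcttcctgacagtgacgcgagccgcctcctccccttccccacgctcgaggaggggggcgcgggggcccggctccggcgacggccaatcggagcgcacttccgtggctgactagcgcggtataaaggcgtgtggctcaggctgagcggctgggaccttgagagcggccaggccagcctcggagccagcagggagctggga
FOSL2: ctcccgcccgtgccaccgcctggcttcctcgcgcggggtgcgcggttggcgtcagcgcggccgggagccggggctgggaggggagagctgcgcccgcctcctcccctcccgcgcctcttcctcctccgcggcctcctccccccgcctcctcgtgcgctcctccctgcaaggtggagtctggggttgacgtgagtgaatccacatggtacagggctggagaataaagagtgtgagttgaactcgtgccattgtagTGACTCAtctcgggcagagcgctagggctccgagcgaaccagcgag

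JUN held TGACATCA at -67 to -60 and TTACCTCA at -186 to -179, counted with the start base as 0. The upstream start of ATF3 held TGACATCA at -123 to -116, and the second ATF3 window held none of the motifs. ATF3 has 6 transcripts in the GENCODE basic set. Only these 2 starts were searched, so sites at any other start of ATF3 would be missed. JUND held a full CRE at -200 to -193, and MAFF held 1 at -54 to -47. FOSL2 held a TRE at 4 to 10, while JUNB, FOS and FOSB held no full site and only the core TGACG, which lies within the CRE and was found in 24.6% of all 35116 windows. Among all windows, 2.61% held TGACATCA, 1.85% TGACGTCA, 4.95% TGACTCA and 0.715% TTACCTCA. The serum response CArG box was found in 1.29% of all windows and in none of the members' windows. These windows reach only 250 bases before the start, so a CArG box farther upstream could not be found. The sites TGACATCA and TTACCTCA were searched after the sequences had been seen, and a match is a description of the letters only.

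**Figure D2:**
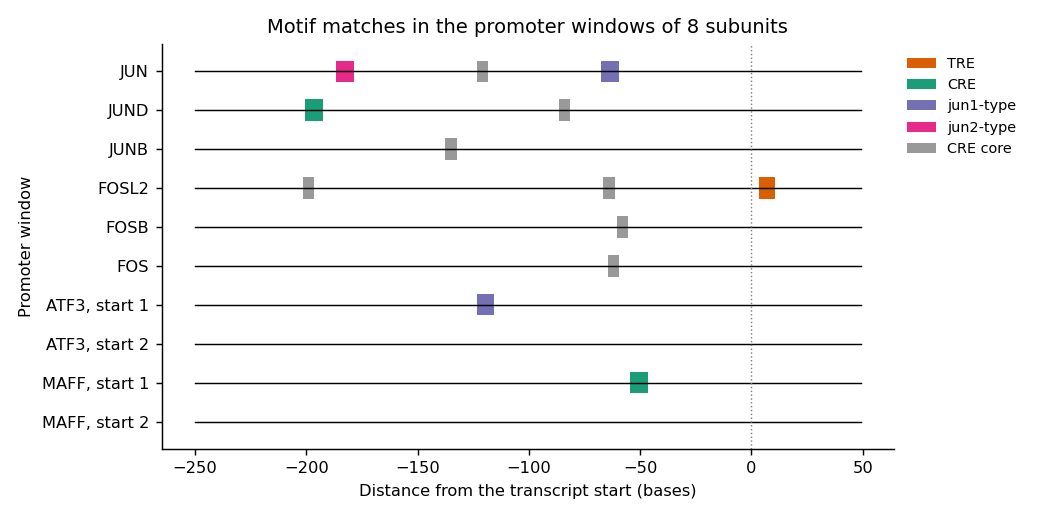
Position of motif matches, in bases from the transcript start, in the 10 promoter windows of 8 subunit genes (JUN, JUND, JUNB, FOSL2, FOSB and FOS with 1 window, ATF3 and MAFF with 2). JUN at -67 and the upstream start of ATF3 at -123 carry the same site. JUND at -200 and MAFF at -54 carry a full CRE, and CRE cores inside a full CRE are not drawn.

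JUN (ENSG00000177606, chromosome 1, 58780788 to 58784327 on the minus strand, GRCh38) encodes the founding AP-1 subunit, a strong transactivator. It measured 375 and 385 FPKM in shFAM49B, against 110.0 and 111 FPKM in shCON. The groups lay far apart and the replicates close together. The log2 fold change was 1.77 (SE 0.0538, limma adjusted p = 0.000284), the 41st highest of the 13775 tested genes. It rested on 20349 and 20398 reads in shFAM49B and 6571 and 7293 reads in shCON. Quantile normalization gave the smallest of the values tried, 1.21 (adjusted p = 0.000303).

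JUND (ENSG00000130522, chromosome 19, 18279760 to 18281622 on the minus strand) encodes the most broadly and steadily expressed JUN protein, known to slow proliferation in fibroblasts. It stood at 73.2 and 83.4 FPKM in shFAM49B, against 40.4 and 49.5 FPKM in shCON. Replicates differed visibly, but no shCON library reached the lower shFAM49B library. JUND was 1.74-fold higher (log2 fold change 0.79, SE 0.116, limma adjusted p = 0.00597).

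JUNB (ENSG00000171223, chromosome 19, 12791496 to 12793315 on the plus strand) encodes a weaker transactivator that can oppose JUN. It measured 10.8 and 12.0 FPKM in shFAM49B, against 18.3 and 18.1 FPKM in shCON. Both shFAM49B libraries were lower. The gene was 1.59-fold lower (log2 fold change -0.63, SE 0.07, limma adjusted p = 0.00315).

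JUN and JUNB thus moved apart within the JUN family, and their ratio within a library does not depend on how libraries are scaled. JUN was 34.6 and 32.1 times the level of JUNB in the shFAM49B libraries, against 6.001 and 6.17 times in the shCON libraries. The ratio was 5.48-fold larger in shFAM49B, with no overlap between the groups. An exact 2-sided permutation test over 2 against 2 libraries cannot go below p = 0.333, which this ratio reached (p = 0.333). JUN made up 80.9 ± 1.09% of the summed FPKM of the JUN family in shFAM49B and 63.7 ± 2.08% in shCON (SD, n = 2 each). JUNB made up 2.43 ± 0.0996% in shFAM49B and 10.5 ± 0.545% in shCON, and JUND 16.6 ± 0.995% in shFAM49B and 25.8 ± 2.62% in shCON, although JUND itself rose. The summed level of the family was 459 and 480 FPKM in shFAM49B, against 169 and 179 FPKM in shCON, 2.70-fold higher.

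**Figure D3:**
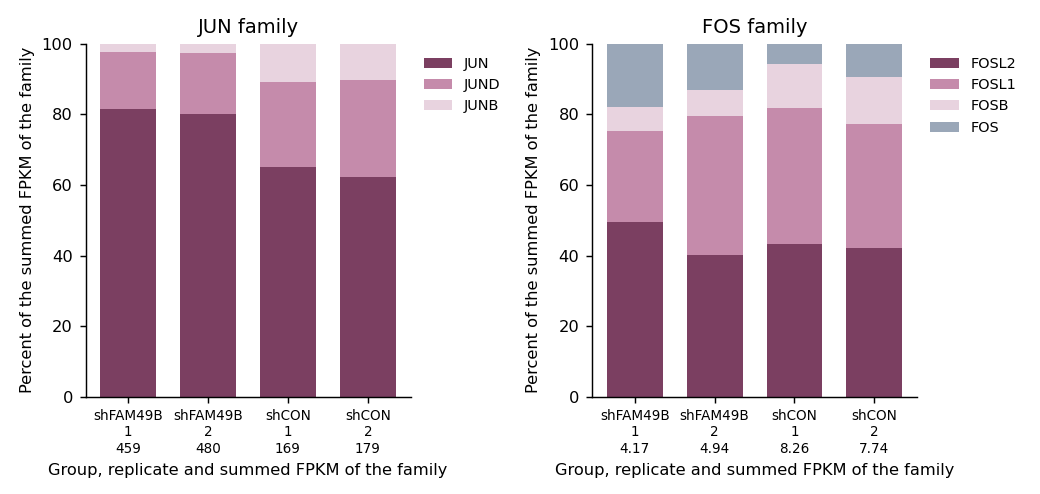
Share of each gene in the summed FPKM of the JUN family (left) and the FOS family (right), 1 bar per library, with the sum written under each bar. JUN takes 81.7% and 80.1% of the JUN family in shFAM49B and 65.2% and 62.3% in shCON, and the FOS family sums are 4.17 and 4.94 FPKM in shFAM49B and 8.26 and 7.74 FPKM in shCON.

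The JUN, JUNB and JUND genes share a structure that differs from the other subunits, as each has a single exon in GENCODE release 29. Single-exon protein-coding genes as a class moved the same way as JUNB, which fell, and the other way from JUN and JUND. The part of gene structure in these changes was not tested. Of the 220 tested, 13.6% were called higher and 37.7% lower, with a median log2 fold change of -0.19. Of the other 11180 tested protein-coding genes, 28.8% were called higher and 15.2% lower, with a median of 0.07. The GC content of the longest annotated transcript was 69.7% for JUND and 64.9% for JUNB, both in the highest of 10 equal groups of tested protein-coding genes by GC content, whose median log2 fold change was 0.16. JUN, at 56.7%, lay in a group with a median of 0.15.

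FOS proteins supply the partner that makes the most stable dimers with JUN. FOSL2 (ENSG00000075426, chromosome 2, 28392448 to 28417312 on the plus strand) encodes FRA2, a FOS protein without the strong transactivation domain of FOS. It measured 2.07 and 1.98 FPKM in shFAM49B, against 3.56 and 3.26 FPKM in shCON. The groups did not overlap, at 227 and 212 reads in shFAM49B against 430 and 431 in shCON. FOSL2 was 1.68-fold lower (log2 fold change -0.54, SE 0.0928, limma adjusted p = 0.00903). The call was lost without shCON replicate 1 (-0.49, adjusted p = 0.0629).

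FOSL1 (ENSG00000175592, chromosome 11, 65892049 to 65900573 on the minus strand) encodes FRA1, a FOS protein known as an output of ERK signalling in carcinoma cells. It stood at 1.07 and 1.95 FPKM in shFAM49B, against 3.20 and 2.72 FPKM in shCON. Both shFAM49B libraries were lower, but they differed from each other by more than the higher of them differed from the nearer shCON library. FOSL1 was 1.96-fold lower (log2 fold change -0.68, SE 0.192, limma adjusted p = 0.0387), on 31 and 55 reads in shFAM49B and 102 and 95 in shCON. The fall was the least stable of the 6 calls. It missed the threshold with no filter (adjusted p = 0.144), after quantile normalization (0.0624), without shCON replicate 1 (0.158), without shCON replicate 2 (0.0919), without shFAM49B replicate 1 (0.0814, log2 fold change -0.42) or with a replicate block (0.051).

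FOSB (ENSG00000125740, chromosome 19, 45467995 to 45475179 on the plus strand), an immediate early gene, had a mean below the filter. It was at 0.282 and 0.373 FPKM in shFAM49B, against 1.04 and 1.02 FPKM in shCON, which is 24 and 31 reads against 97 and 105 reads. The groups did not overlap, and FOSB was 3.14-fold lower by mean FPKM. From the reads summed over each group, the ratio of shFAM49B to shCON was 0.318 (exact 95% interval 0.231 to 0.430, counting error only). With no filter, limma called 10.9% of 32758 genes (6.67% higher and 4.21% lower), and FOSB missed the threshold (log2 fold change -0.61, adjusted p = 0.061). In limma-voom on recovered reads over genes with at least 20 reads in sum, a fit chosen after seeing the data that called 43.1% of 19222 genes (23% higher and 20.1% lower), FOSB passed (log2 fold change -1.65, adjusted p = 2.61e-05).

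FOS (ENSG00000170345, chromosome 14, 75278774 to 75282230 on the plus strand), the classic immediate early subunit, was at 0.745 and 0.640 FPKM in shFAM49B and at 0.458 and 0.735 FPKM in shCON. The groups overlapped, at 37 and 31 reads against 25 and 44 reads. The ratio of summed reads was 1.15 (exact 95% interval 0.811 to 1.63), so a change within that range was not detectable at this depth. Over the 4 FOS genes the summed level was 1.76-fold lower in shFAM49B. The JUN family exceeded the FOS family by 110.1 and 97.3 times in the shFAM49B libraries, against 20.4 and 23.1 times in the shCON libraries (exact 2-sided permutation p = 0.333, the smallest possible).

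ATF3 (ENSG00000162772, chromosome 1, 212565334 to 212620777 on the plus strand), which can repress as a homodimer and activate with JUN, measured 57.2 and 57.8 FPKM in shFAM49B, against 35.9 and 38.5 FPKM in shCON. Both shFAM49B libraries were higher and nearly equal. ATF3 was 1.54-fold higher (log2 fold change 0.61, SE 0.0593, limma adjusted p = 0.0024). JUN stood at 6.55 and 6.66 times the level of ATF3 in the shFAM49B libraries, against 3.06 and 2.89 times in the shCON libraries, so JUN gained on ATF3 as well. The ratio of JUND to ATF3 overlapped between the groups, at 1.28 and 1.44 in shFAM49B and 1.12 and 1.28 in shCON (exact 2-sided permutation p = 0.667).

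MAFK (ENSG00000198517, chromosome 7, 1530714 to 1543043 on the plus strand) stood at 6.64 and 7.24 FPKM in shFAM49B, against 6.24 and 5.85 FPKM in shCON. The libraries did not overlap, but the log2 fold change of 0.17 missed the threshold (95% interval -0.02 to 0.36, limma adjusted p = 0.12) and was negative as TPM (-0.0434) and relative to recovered reads (-0.0224). Its exons overlap those of TMEM184A on the opposite strand, which had 25 to 64 reads per library against 454 to 483 for MAFK. MAFF (ENSG00000185022, chromosome 22, 38200767 to 38216511 on the plus strand) was at 0.639 and 1.04 FPKM in shFAM49B and at 0.676 and 0.982 FPKM in shCON. The groups overlapped fully, and the ratio of summed reads was 0.998 (exact 95% interval 0.792 to 1.26). The other members had no exon that overlaps an exon of another gene in the GENCODE basic set. The spans of JUNB, FOSB and MAFF do overlap HOOK2, ERCC1 and PLA2G6 on the opposite strand. JUNB has a single exon that fills its span, so its overlap lies in that exon and outside the exons of HOOK2. FOSL2 holds 2 noncoding genes with at most 3 reads in any library. ERCC1 rose (log2 fold change 0.44, adjusted p = 0.0079) where FOSB was lower.

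**Figure D4:**
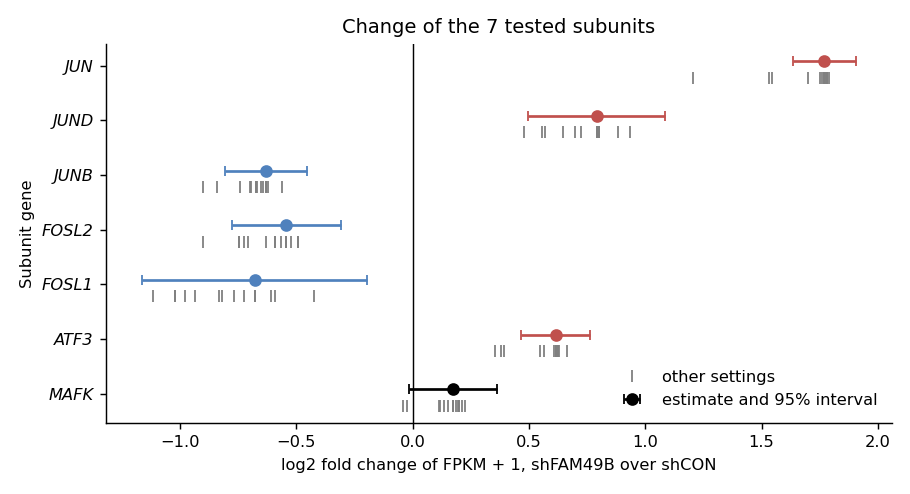
Log2 fold change of FPKM + 1, shFAM49B over shCON, for the 7 tested subunits, with the 95% interval of the limma fit (red: rose, blue: fell, black: did not pass) and grey ticks for the other settings tried. JUN lies apart at 1.77, and only MAFK has ticks on both sides of 0.

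The whole set was dominated by JUN. The 10 subunits summed to 528 and 551 FPKM in shFAM49B, against 220 and 232 FPKM in shCON, and JUN accounted for 85.9% of the difference between the group means. JUN made up 70.4 ± 0.871% of the 10-gene sum in shFAM49B and 49.02 ± 1.44% in shCON (SD, n = 2 each). The genes whose values over the 4 libraries were closest to those of JUN, among 4522 protein-coding genes of at least 10 FPKM, were the HSP40 co-chaperone gene DNAJB1 (distance 0.0574 on the log2 scale), the small GTPase gene RHOB (0.175) and the HSP70 gene HSPA1B (0.211). DNAJB1 stood at 67.2 and 70.8 FPKM in shFAM49B, against 19.2 and 18.8 FPKM in shCON. The closest to FOSL1, the called member with the largest fall on the log2 scale, were BCL7B (0.200), TOB1 (0.216) and MICALL1 (0.254). With 4 libraries in 2 groups such distances mostly compare sizes of change.

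Among genes of proteins that act on the AP-1 subunits or bind beside them, the share called was 42.9% to 56.3% in each of 3 lists, against 42.2% of all tested genes. Of 18 tested other bZIP partners and relatives, 3 rose, 5 fell and 10 did not pass (44.4% called, median log2 fold change -0.07). As TPM 2 rose and 8 fell, where 1597 of all 13775 tested genes were called higher and 4362 lower. JDP2, a repressor that dimerises with JUN, fell 2.28-fold to 1.37 ± 0.203 FPKM in shFAM49B, against 3.12 ± 0.0542 FPKM in shCON. ATF7, a relative of ATF2 and partner of JUN, rose 1.73-fold to 5.56 ± 0.341 FPKM in shFAM49B, against 3.22 ± 0.107 FPKM in shCON. NFE2L2, which encodes the oxidative stress regulator NRF2, a small MAF partner, fell 1.64-fold and ATF1 fell 1.49-fold. The limma adjusted p lay between 0.00276 and 0.00536 for these 4 genes.

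Of 16 tested kinases and ubiquitin ligases that act on JUN and FOS proteins, 5 rose, 4 fell and 7 did not pass (56.3% called, against 42.2% of all tested genes; median -0.01). MAP2K7, a kinase directly upstream of JNK, rose 1.82-fold to 22.6 ± 1.11 FPKM in shFAM49B, against 12.4 ± 0.954 FPKM in shCON. MAP2K4, another such kinase, named after its value was seen, fell. Its mean was 7.04 FPKM in shFAM49B, against 8.76 FPKM in shCON (log2 fold change -0.28, limma adjusted p = 0.0238). CSNK2A1, a subunit of casein kinase 2, rose 1.36-fold but missed the threshold as TPM (adjusted p = 0.0611). GSK3B, which phosphorylates JUN near its DNA-binding region, fell 1.41-fold to 7.85 ± 0.14 FPKM in shFAM49B, against 11.1 ± 0.467 FPKM in shCON. As TPM the list gave 2 rises and 8 falls, where 1597 of all 13775 tested genes were called higher and 4362 lower. Leaving out 1 library gave 1 fall without shCON replicate 1, shCON replicate 2 or shFAM49B replicate 2, with 3 rises each, and 2 falls with 4 rises without shFAM49B replicate 1.

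Of 14 tested regulators of JUN and FOS transcription, 3 rose, 3 fell and 8 did not pass (42.9% called, against 42.2% of all tested genes; median -0.05). As TPM and relative to recovered reads 1 rose and 6 fell. Under these 2 scalings 1597 and 1722 of all 13775 tested genes were called higher, and 4362 and 4173 lower. SP1 rose 1.78-fold to 40.3 ± 1.09 FPKM in shFAM49B, against 22.6 ± 1.45 FPKM in shCON. Among MEF2 factors, which bind the JUN promoter, MEF2D rose 1.33-fold and MEF2A fell 1.54-fold, and MEF2D did not pass as TPM (adjusted p = 0.0742) or relative to recovered reads (0.053). ELK3, a serum response partner, fell 1.52-fold but missed the threshold with no filter (adjusted p = 0.055) and without shCON replicate 1 (0.0686). SRF, the serum response factor itself, missed the threshold (-0.07 on the log2 scale, adjusted p = 0.414); it was named after its value was seen.

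Of 25 textbook AP-1 target genes, 12 were tested, of which 3 rose, 4 fell and 5 did not pass (median log2 fold change -0.08), where 26.4% of all tested genes were called higher and 15.8% lower. The rises numbered 1 without shCON replicate 1, 2 without shCON replicate 2 and 0 without shFAM49B replicate 2. CD44, the hyaluronan receptor, stood at 0.215 and 0.374 FPKM in shFAM49B, against 4.44 and 4.11 FPKM in shCON, 14.5-fold lower (log2 fold change -2.03, limma adjusted p = 0.00136). CCND1, which encodes cyclin D1, fell 1.77-fold, TIMP1, an inhibitor of metalloproteases, fell 1.63-fold and VEGFA fell 1.86-fold. The 3 that rose, named after their values were seen, were EZR (1.24-fold), HMGA1 (1.33-fold) and DUSP1 (1.52-fold), and none of the 3 passed as TPM, relative to recovered reads or after quantile normalization, where HMGA1 had a negative log2 fold change of -0.08. The 13 targets under the filter included the secreted proteases MMP10 and MMP13, named after their values were seen. In 8 of these 13 both shFAM49B libraries were below both shCON libraries, in none above, and 5 overlapped. Of all 18983 genes under the filter with a read in any library, 25.3% had both shFAM49B libraries below and 11% had both above. MMP13 had 2 and 1 reads in shFAM49B, against 27 and 30 reads in shCON, and MMP10 had 2 and 2 reads in shFAM49B, against 24 and 17 reads in shCON. The 8 basal epithelial markers fell in the same libraries, and their part in these low targets was not tested.

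Of 12 tested genes known to be induced together with JUN by stress, 7 rose, 3 fell and 2 did not pass. The share called was 83.3%, against 42.2% of all tested genes (26.4% higher and 15.8% lower). Their median was 0.36, the highest of the 5 lists. The list was chosen with earlier results of these data known. It holds DNAJB1, RHOB and HSPA1B, the genes nearest to JUN in pattern, so its share and median are not independent of these data. The rises numbered 3 as TPM, 3 without shCON replicate 1, 3 without shFAM49B replicate 2 and 4 without shFAM49B replicate 1. Over all 13775 tested genes, 1597 were called higher and 4362 lower as TPM. RHOB rose 3.85-fold to 302 ± 8.09 FPKM in shFAM49B, against 78.5 ± 4.32 FPKM in shCON. DNAJB1 rose 3.63-fold and HSPA1B 3.04-fold, to 83.4 ± 2.42 FPKM in shFAM49B, against 27.4 ± 1.14 FPKM in shCON. HSPA1B is nearly identical to HSPA1A, and how reads were divided between the copies is not stated, so its value is uncertain. CHAC1, a glutathione-degrading enzyme of the unfolded protein response, fell 5.10-fold to 4.83 ± 0.514 FPKM in shFAM49B, against 24.6 ± 1.55 FPKM in shCON. Across these 4 genes the limma adjusted p lay between 0.000284 and 0.000556.

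**Figure D5:**
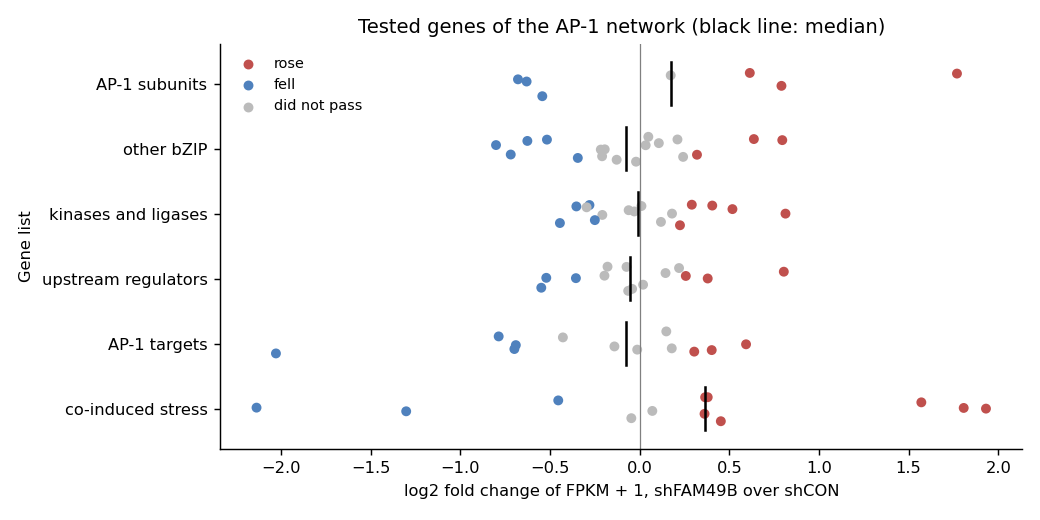
Log2 fold change of FPKM + 1, shFAM49B over shCON, of every tested gene of the AP-1 subunits and the 5 other lists, with the median of each list as a black line. The medians of 4 of the 5 other lists lie between -0.08 and -0.01, and that of the co-induced stress genes at 0.36.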

How the data were processed

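Total RNA was made into libraries with the NEBNext Ultra RNA kit, per the labels' protocols, and neither aligner, counter nor strand setting was given in the sources used here, so reads of overlapping genes on opposite strands cannot be told apart. The deposited values are FPKM per gene, computed by the authors. Mouse builds (GRCm38, mm10) stand in the submitters' processing notes, but all 58735 identifiers are in human GENCODE release 29 and 58724 have its start and end, so coordinates are on GRCh38. Multiplied by gene length, 100% of the values were whole multiples of 1 step (tolerance 0.001), which gave reads per gene. The deposited denominators equalled a median-ratio scaling of these reads. They were 0.941 and 0.919 times the totals in shFAM49B, against 1.08 and 1.10 times in shCON. At this depth 1 read in 1 kb is 0.0541 to 0.0668 FPKM.

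Groups and replicate numbers came from sample titles. The test was limma (3.58.1, under R 4.3.3) with a mean trend on log2(FPKM + 1), 2-sided, with 2 residual and 3.32 prior degrees of freedom. Log2 fold changes are on that scale, which understates low genes, while folds are ratios of mean FPKM. Library pairs of a group differed by a chi-square of 3.48 to 3.90 per gene (genes with at least 20 reads), against 48.9 to 56.1 between groups. No label names separate cultures, so a p-value here reflects only the spread of these samples, possibly technical. On simulated reads, with 50 genes changed at each fold, limma recovered 0% at 1.25-fold, 32% at 1.5-fold, 78% at 2-fold and 88% at 4-fold, and called 4 unchanged genes of 13782 fitted. A far smaller share of genes was changed there than the 42.2% called in the data. The adjustment was therefore stricter in the simulation, and its recovery does not give that of the test on the data.

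The members and lists were chosen with earlier results of these data known. Named are all members, FAM49B, up to 4 genes of smallest p per list and the 3 genes nearest in pattern to the subunits of largest called rise and fall; other genes of these lists are said to be named after their values were seen. 1 gene that the rule names is not reported here. Alternatives changed the pseudocount, filter, scaling, test, libraries and replicate block. Intervals on read ratios cover counting error only.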

Additional observations from a re-analysis of the deposited data

How the results depend on the processing

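JUN, JUND, JUNB and ATF3 kept their direction and their call under all 16 alternatives, with log2 fold changes of 1.21 to 1.79, 0.48 to 0.93, -0.90 to -0.56 and 0.35 to 0.66. FOSL2 did so under 14 of 15 and FOSL1 under 9 of 15, with ranges of -0.90 to -0.49 and -1.12 to -0.42. MAFK did not pass under any alternative and was negative as TPM (-0.0434) and relative to recovered reads (-0.0224). The subunits called lower numbered 1 with a filter at 5 FPKM, which leaves FOSL1 and FOSL2 untested, and 1 to 3 when a library was left out, with 1 without shCON replicate 1. The subunits called higher numbered 3 throughout. Over all genes, 2185 were higher and 1378 lower without a filter, 1322 lower with a filter at 5 FPKM, 1597 higher and 4362 lower as TPM, 1722 higher and 4173 lower relative to recovered reads, and 3869 lower in voom over genes with at least 20 reads, an alternative chosen after seeing the data. Leaving out a library gave 1897 to 2495 higher and 1027 to 1529 lower. The ratio of FOSL2 to FOSL1 differed between groups by 0.32 and by -0.138 to 0.777 when a library was left out, with the negative value without shFAM49B replicate 1. The same replicate number does not pair the libraries (correlation of deviations -0.0132). With a replicate block, 3429 genes were higher and 2036 lower, 3 subunits were called higher and 2 lower, and FOSL1 did not pass (adjusted p = 0.051). FOSL1 rested on 31 to 102 reads per library, and FOS, FOSB and MAFF on 24 to 105, and for FOS and MAFF counting error alone spans ratios of 0.811 to 1.63 and 0.792 to 1.26.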

Other observations

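The deposited table marks 48 genes as bZIP transcription factors. Of the 39 tested, 12 rose, 10 fell and 17 did not pass in shFAM49B (56.4% called, against 42.2% of all tested genes). Without the AP-1 subunits described above, 9 of 32 rose and 7 fell (50% called), with a median log2 fold change of -0.01. Of all tested genes 26.4% were called higher and 15.8% lower, with a median of 0.05. The genes in this paragraph were named after their values were seen. No list of targets of ATF4, the main transcription factor of the integrated stress response, was tested. ATF3 was 1.54-fold higher, while CHAC1 fell 5.10-fold, TRIB3 2.63-fold, ATF5 1.78-fold and DDIT3 1.41-fold (limma adjusted p = 0.000556 to 0.00857), and all 4 also fell as TPM, relative to recovered reads and after quantile normalization. ATF4 itself averaged 250 ± 6.96 FPKM in shFAM49B and 204 ± 14.3 FPKM in shCON (SD, n = 2 each), which passed with the values as deposited (log2 fold change 0.30, adjusted p = 0.0233). As TPM it did not pass (0.05, adjusted p = 0.543), and after quantile normalization it was called lower (-0.22, adjusted p = 0.036), so its direction depends on the scaling. CREB3L2, an endoplasmic reticulum relative of ATF6, rose 1.56-fold and passed under each of these scalings. XBP1 (1.30-fold) and ATF6 (1.29-fold) passed as deposited, but not as TPM (adjusted p = 0.0871 and 0.238).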
